A study of Mus musculus with 12 samples.

Results

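The clustered protocadherins are neuronal cell-surface proteins of the cadherin superfamily, encoded by the alpha, beta and gamma gene clusters, which lie side by side on mouse chromosome 18. Members were taken from the deposited count table by gene symbol, as genes named Pcdha, Pcdhb or Pcdhg followed by a, b, c or a digit. The rule found 58 of the 52634 genes in the table, 14 in the alpha, 22 in the beta and 22 in the gamma cluster. Each alpha and gamma mRNA joins a variable first exon, which encodes the extracellular cadherin repeats and the membrane span, to constant exons for a cytoplasmic end that all members of the cluster share. Beta genes have no constant exons. In most neurons the variable promoters are chosen at random, with CTCF and cohesin bringing an enhancer to the chosen promoter, and the proteins on a cell bind like proteins on its neighbours, which lets a neuron tell its own branches from those of other cells. The C-type members, Pcdhac1, Pcdhac2, Pcdhgc3, Pcdhgc4 and Pcdhgc5, are regulated differently from the others, and Pcdhac2 is known for its part in spacing the axons of serotonergic neurons, which innervate the hippocampus.

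The study measured dorsal hippocampus RNA at postnatal day 7 in 12 bulk RNA-seq libraries, each made from tissue pooled from 4 mice. Controls were SERTfl/fl mice, in which Slc6a4, the gene of the serotonin transporter SERT, carries loxP sites but is intact. The other genotype is labelled SERTPyramid, and its sample titles add a delta sign, for a deletion of the gene in pyramidal neurons. No source used here gives the Cre line or says whether controls carried it. Each genotype had 3 libraries labelled female and 3 labelled male, and the title of the series asks about effects that differ between the sexes. The labels do not say whether pools shared litters, so that p-values measure the spread between these pools.

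Library totals ran from 18747249 to 25522347 counts. Transcripts of the sex chromosomes went against the labelled sex in 10 libraries. The exceptions were control replicate 1 labelled female, with 20646 counts of Xist and 1 of Y-linked genes, and control replicate 1 labelled male, with 14 and 2159. These 2 libraries are thus unlike the others of their own group, sex is given as labelled throughout, and the results are also given without them. Slc6a4 had 0 to 17 counts per library in controls and 1 to 12 in SERTPyramid, too few to check the genotype. The pyramidal neuron markers Slc17a7 and Neurod6 were at 1090 to 1330 and 290 to 326 CPM (counts scaled to a library size common to all libraries). Of 5 listed markers of serotonergic neurons, Fev, which defines these cells, had 0 to 2 counts per library. The others were detected in every library, Tph2 with 13 to 43 counts, Gch1 with 17 to 43, Ddc with 45 to 78 and Slc18a2 with 215 to 334. The summed level of 11 markers of choroid plexus epithelium, a tissue next to the hippocampus, ran from 76.73 CPM in SERTPyramid replicate 3 labelled female to 2750 CPM in SERTPyramid replicate 1 labelled male. In bulk tissue, fewer cells that express a gene and less RNA per cell cannot be told apart.

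The structure of the clusters set what the counts could show. In the GENCODE M21 annotation of GRCm38, the alpha cluster lies at 36930184 to 37187661 on chromosome 18, the beta cluster at 37264938 to 37524479 and the gamma cluster at 37661793 to 37841873, all on the plus strand. The 14 alpha models have 2860 exon bases in common and the 22 gamma models 2116, each in 3 blocks, which are the constant exons. No base is common to all beta genes, and 19 of the 22 beta models share no exon base with any other gene. Pcdhga10 has no exon base of its own, because its first exon lies wholly under Gm26672 on the other strand, and it had 0 counts in every library. Another 14 gene models that are no members overlap the exons of members, 9 of them on the minus strand. The 6 of these without a base of their own also had 0 counts in every library. The counts of alpha and gamma genes thus come from bases found in 1 gene model only and leave out the constant exons. The kit does not mark strand, so that reads of a member and of a model on the other strand cannot be told apart.

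**Figure D1:**
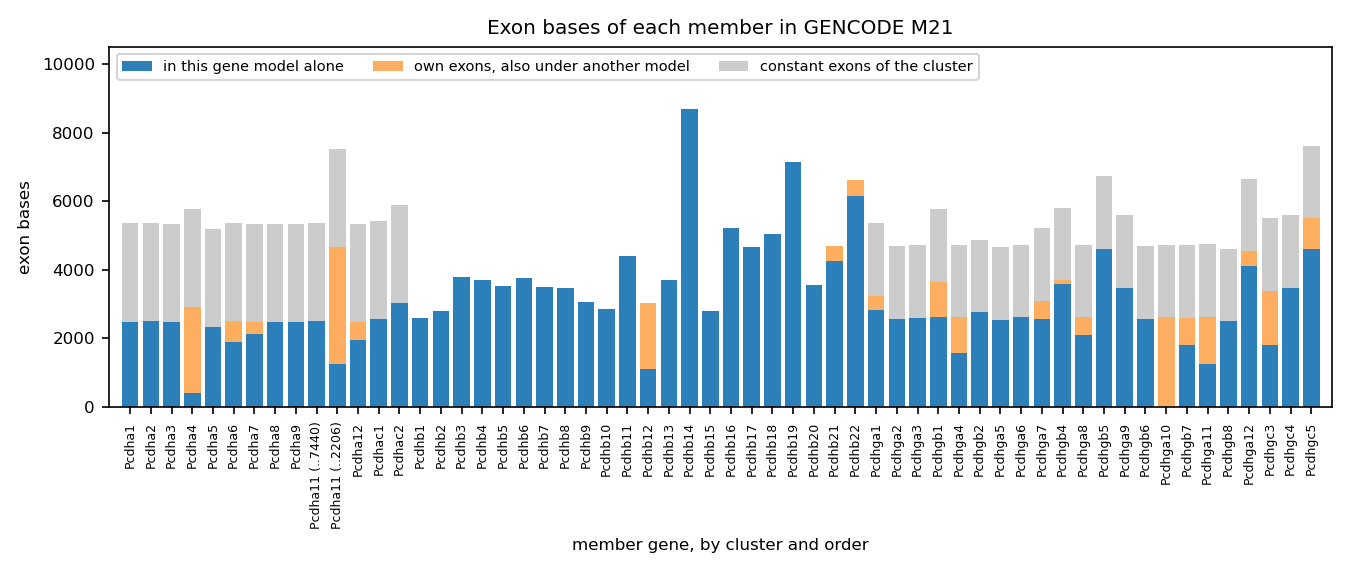
Exon bases of each of the 58 members in the annotation, stacked as bases found in that model alone, bases of its own exons that also lie under another model, and constant exons of the cluster (the 2 Pcdha11 models carry the end of their Ensembl ID). Pcdhga10 has no base of its own, and Pcdha4, Pcdha11 (ENSMUSG00000102206), Pcdhb12, Pcdhga11 and Pcdhgc3 keep only part of their own exons.

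The loss differed between members. Of its own exon bases, Pcdha4 had 86.1% under another model and kept 404, the model ENSMUSG00000102206, which is 1 of 2 that carry the symbol Pcdha11, had 72.9% covered, Pcdhb12 63.5%, Pcdhga11 52.4%, Pcdhgc3 46.2% and Pcdhga4 39.9%. First exons also resemble each other within a cluster, which matters for reads that fit several places. Runs of 50 bases of the first exon that recur in another member made up a median of 14.2% in alpha genes, 4.26% in beta genes and 0.73% in gamma genes, with a highest share of 23.4% in Pcdha7. The share was 16.85% in Pcdhgb1 and 16.48% in Pcdhgb2, and 11.99% in Pcdhb12, so that beta and gamma genes also hold members that resemble another closely. None of the 5 C-type first exons held such a run. The first exons also differed in base composition, with a median GC content of 53.05% in alpha, 45.97% in beta and 51.84% in gamma genes.

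The clusters together took 797.4 ± 36.6 CPM (SD, n = 12) of the library, scaled here by the trimmed mean of M-values (TMM). Gamma genes gave 52.25% ± 0.725, beta genes 25.2% ± 0.633 and alpha genes 22.55% ± 0.514 of this sum (SD, n = 12). These shares are of counted reads, and alpha and gamma genes would have more if constant exons were counted. The 5 C-type members alone made up 32.7% ± 0.468 of the sum (SD, n = 12), between 31.6% and 33.2% in every library. Without them the shares were 45.4% for gamma, 37.4% for beta and 17.2% for alpha genes.

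The C-type members led the family. To compare genes, levels were divided by the length of exon that no other gene overlaps, which gives CPM per kilobase. Pcdhgc3 (ENSMUSG00000102918, 37806364 to 37841873 on chromosome 18), whose cytoplasmic end binds the Wnt pathway scaffold Axin1, was highest at 50.6 ± 2.19 CPM per kilobase (SD, n = 12). Pcdhac2 (ENSMUSG00000102697, 37143503 to 37187657) followed at 26.3 ± 1.67 and gave 44.3% of all alpha counts. The third was Pcdhga11 at 21.9 ± 2.36 CPM per kilobase, of which 1256 bases could be counted, and the fourth was Pcdhgc4, an isoform that supports the survival of neurons, at 15.95 ± 1.36. This order of the first 4 was the same in all 12 libraries. The ranges of Pcdhac2 (22.5 to 28.4) and Pcdhga11 (17.8 to 26.3 CPM per kilobase) overlapped across libraries, while that of Pcdhgc3 (46.6 to 54.6) lay apart. Pcdhgc5, which binds GABA-A receptors, stood at 5.45 ± 0.471 and Pcdhac1 at 3.11 ± 0.311 CPM per kilobase, ranks 15 and 30 of the 57 members with a length. C-type identity and a high level did not go together in these 2.

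Among the other alpha genes, Pcdha12 (7.23 ± 0.936 CPM per kilobase) and Pcdha9 (6.05 ± 0.652) were the next highest after Pcdhac2, and the median of the 12 alpha members that passed the filter on low counts was 4.3 CPM per kilobase. At the low end, Pcdha8 had 0.319 CPM per kilobase, while Pcdha4 (0 to 2 counts per library) and the Pcdha11 model ENSMUSG00000102206 (0 to 4 counts) were at 0.0515 and 0.0529. Both of these are among the models with most of their own exon covered. The other Pcdha11 model, ENSMUSG00000007440 (37005203 to 37187657), has no covered base and was at 2.43 CPM per kilobase.

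Beta genes covered the narrowest range. The highest were Pcdhb9 (4.89 ± 0.311), Pcdhb7 (4.01 ± 0.292) and Pcdhb17 (3.91 ± 0.257 CPM per kilobase), and the median of the 21 that passed the filter was 2.03. The leading beta gene was 2.41 times that median, against 6.12 times for the leading alpha and 9.28 times for the leading gamma gene. The leading alpha and gamma genes, Pcdhac2 and Pcdhgc3, are C-types, a class without beta members. Outside this class, the highest alpha gene, Pcdha12, was at 7.23 CPM per kilobase and the highest gamma gene, Pcdhga11, at 21.9. The medians of all tested members, C-types included, were 4.3 CPM per kilobase in the alpha and 5.45 in the gamma cluster. Among beta genes, Pcdhb1, the first of its cluster, was the exception with 2 to 10 counts per library (0.0881 CPM per kilobase). None of its 2588 exon bases is covered by another model. Pcdhb6 was the next lowest at 0.914 ± 0.14. The bulk values cannot show how many cells carried each isoform.

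Within the gamma cluster, the A and B subfamilies alternate along the chromosome, and they differed in level. The 12 Pcdhga genes gave 182 ± 10.3 CPM and the 7 Pcdhgb genes 61.95 ± 4.5 CPM (SD, n = 12), with medians of 5.85 and 2.77 CPM per kilobase. The lowest were Pcdhgb8 at 0.579 ± 0.137, which the annotation calls a polymorphic pseudogene, and Pcdhgb5 at 1.55 ± 0.219. Across members, the order was nearly the same in each pool. Spearman's rho over 57 members lay between 0.964 and 0.992 for the 66 pairs of libraries, which share gene lengths and annotation. With the length of all exons as divisor, Pcdhgc3 and Pcdhac2 stayed first and second, Pcdhgc4 passed Pcdhga11, and Pcdhga4 moved from rank 6 to 21 and Pcdha12 from 8 to 20.

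**Figure D2:**
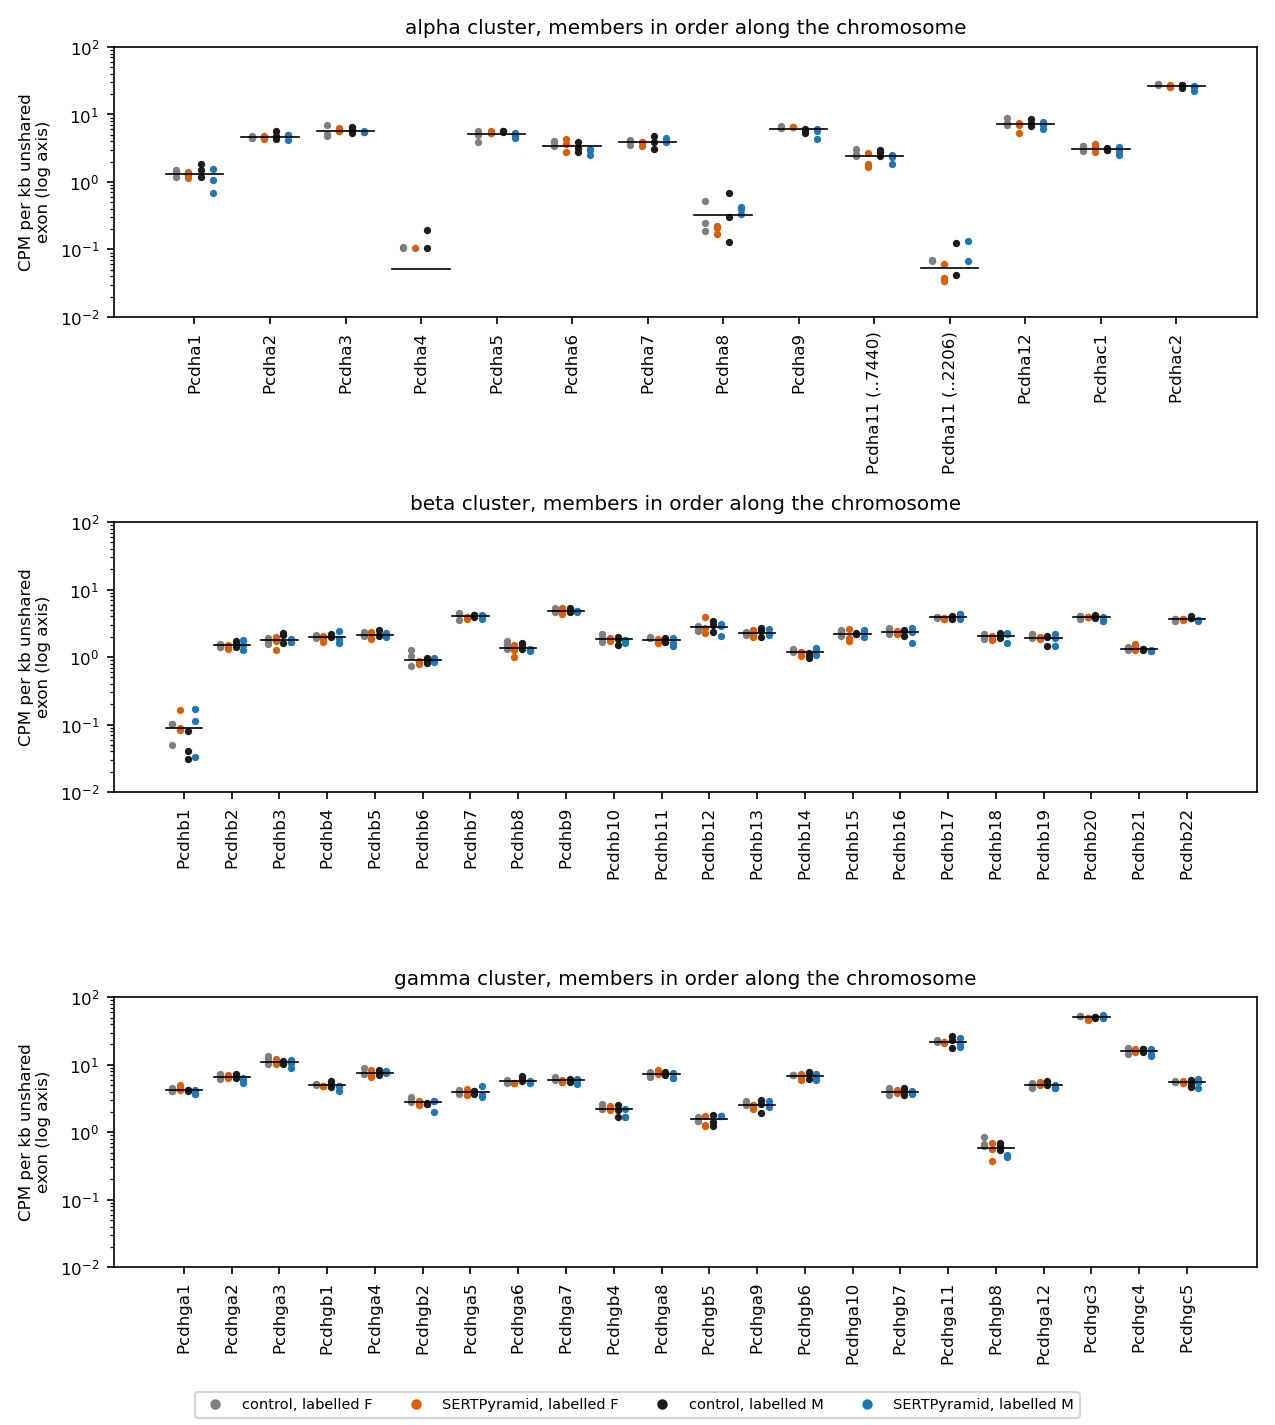
Level of each member in CPM per kilobase of unshared exon on a log axis, with 1 panel per cluster and genes in their order along the chromosome. Each point is 1 library, coloured by group, black lines are means of the 12 libraries, and libraries at 0 counts and Pcdhga10, which has no unshared base, are not drawn. Pcdhgc3 (50.6), Pcdhac2 (26.3), Pcdhga11 (21.9) and Pcdhgc4 (15.95) stand above the rest.

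Pools varied little at most members. The coefficient of variation over the 12 libraries had a median of 10.3% among the 54 members that passed the filter and was under 15% in 47. The steadiest were Pcdhgc3 (4.33%) and Pcdhb22 (4.92%), and the 3 above 20% were Pcdha8 (51.2%), Pcdhgb8 (23.7%) and Pcdha1 (22.7%). These 3 are low, with 8 to 40 counts of Pcdha8 and 20 to 48 of Pcdhgb8 per library. The biological coefficient of variation that edgeR estimated had a median of 8.05% over members and 6.86% over all 17631 genes tested. It lay under the trend for genes of like level in 28 of 54 members (51.9%) and in 70.4% of all genes.

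The main comparison asked whether loss of SERT from pyramidal neurons went with a change in protocadherin RNA. The summed level of the 58 genes in labelled females was 816, 832.2 and 822.3 CPM in controls and 783.3, 791.5 and 787.9 CPM in SERTPyramid. All 3 SERTPyramid pools were below all 3 controls, with group means of 787.6 ± 4.11 and 823.5 ± 8.17 CPM (SD, n = 3). In labelled males the sum was 759.2, 842.9 and 825.7 CPM in controls and 766.3, 822.9 and 718.2 CPM in SERTPyramid. The groups overlapped here, with means of 769.1 ± 52.4 and 809.3 ± 44.2 CPM (SD, n = 3), and control replicate 1 was the second lowest of the 12 libraries. That control pool had 2159 Y-linked counts, and the SERTPyramid pools labelled female had 2908 to 3151. Its sum of 759.2 CPM lay below all of theirs. The gap in labelled females thus depends on the labels and is absent if pools are grouped by these transcripts. Without control replicate 1 the remaining controls had 822.3 to 832.2 CPM in labelled females and 825.7 to 842.9 CPM in labelled males, and SERTPyramid labelled male had 718.2 to 822.9. With only 2 controls left in each labelled sex, SERTPyramid then lay below control without overlap in both. With library totals in place of TMM scaling, labelled females had 810.4 to 827.2 CPM in controls and 781.9 to 798.3 CPM in SERTPyramid, again without overlap.

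The sum by cluster went the same way with more overlap. Gamma genes in labelled females had 423.4, 431.6 and 435.5 CPM in controls and 419.9, 415.4 and 403.6 CPM in SERTPyramid, with no overlap. Beta genes had 209.4, 204.3 and 205.4 against 188.7, 198.3 and 200.3 CPM, also apart. Alpha genes had 183.3, 196.3 and 181.4 against 174.6, 177.8 and 184.1 CPM, which overlapped. In labelled males all 3 clusters overlapped between genotypes. Control replicate 1 labelled male, with Y-linked transcripts like the SERTPyramid pools labelled female, had 397.5 CPM for gamma and 189.3 CPM for beta genes. The gamma value lay below those of these SERTPyramid pools and the beta value among them. The C-type share was 32.5% to 32.9% in controls and 32.4% to 33.1% in SERTPyramid labelled female, so that the C-type and the other members kept nearly the same proportion.

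**Figure D3:**
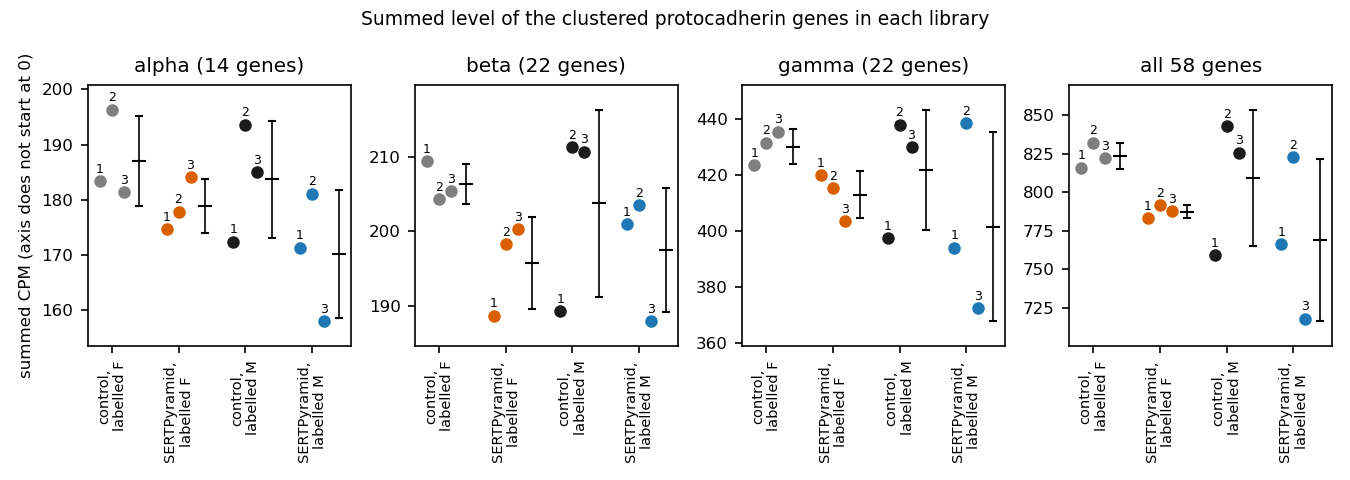
Summed CPM of the alpha, beta and gamma genes and of all 58 members in each library (points, numbered by replicate) with group means and SD (bars, n = 3), on axes that do not start at 0. In labelled females the SERTPyramid pools (783.3 to 791.5) lie below the controls (816 to 832.2), and in labelled males control replicate 1 (759.2) and SERTPyramid replicate 3 (718.2) are lowest.

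Marker sums of other cell types also differed between these pools. In labelled females, markers of immature neurons and progenitors summed to 1344 to 1357 CPM in controls and 1186 to 1269 CPM in SERTPyramid, those of dentate granule neurons to 327.9 to 395.9 and 292.8 to 308.7 CPM, and those of endothelial cells to 246.3 to 249.9 and 222.5 to 244.7 CPM. None of these 3 overlapped, while the sums of all other listed cell types did, such as interneurons with 452.5 to 486.2 and 461.1 to 499.2 CPM. Control replicate 1 labelled male had 298 CPM for dentate granule and 239.2 CPM for endothelial markers, within these SERTPyramid ranges. Its sum for immature neurons and progenitors, 1322 CPM, lay above them. The part of these cell types in the lower protocadherin sum was not tested. Choroid plexus markers ranged from 76.73 to 1395 CPM among the SERTPyramid pools labelled female, whose protocadherin sums lay within 783.3 to 791.5 CPM. In labelled males, SERTPyramid replicate 3 and control replicate 1, the pools with the lowest protocadherin sums, also had the lowest sums of pyramidal neuron markers (2442 and 2569 CPM) and of astrocyte markers (2857 and 2873 CPM). Among labelled males they were also lowest for markers of the oligodendrocyte lineage (428.2 and 397.8 CPM) and of microglia (143.2 and 140.9 CPM). For the other listed types they were not both lowest among labelled males. Immature neuron and progenitor markers were at 1292 and 1322 CPM, above SERTPyramid replicate 1 (1217 CPM). The serotonergic sum of SERTPyramid replicate 3, 19.45 CPM, was the highest among labelled males. The part of these marker sums was not tested either.

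Gene by gene, edgeR's quasi-likelihood test called 0 of the 54 members at an adjusted p of 0.05 in labelled females, in labelled males, in the mean over labelled sexes or in the difference between them. The same fit called 0% of the 17631 genes tested in each of these comparisons, so that the members match the background here. Without adjustment, p was under 0.05 for 2 members in labelled females (8.04% of all genes), for 6 in labelled males (3.16%), for 4 in the difference between the labelled sexes (4.45%) and for 5 in the mean (6.49%). DESeq2 also called 0 members, and over all genes 1 in labelled females and 1 in the difference. In labelled females it gave no adjusted p for 46 of the 54 members, which thus could not be called there. In the same order, 1, 3, 2 and 3 members had an unadjusted p under 0.05 by DESeq2, against 5.98%, 1.75%, 2.84% and 4.71% of all genes. The 6 labelled-female libraries fitted alone called 2.43% of 17108 genes and 0 of 54 members, with 3 members under an unadjusted 0.05, against 13.9% of all genes. The labelled-male libraries alone called 0% and 0 members, with 4 under an unadjusted 0.05, against 1.86% of all genes. The 4 untested members were Pcdha4, Pcdha11 (ENSMUSG00000102206), Pcdhb1 and Pcdhga10.

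The unadjusted counts rest on single libraries. In labelled females the 2 members became 6 without control replicate 2 (5.82% of all genes) and 5 without SERTPyramid replicate 2 (5.05%). They became 1 without control replicate 3 (6.54%) or SERTPyramid replicate 1 (7.24%), and 0 without SERTPyramid replicate 3 (6.5%). In labelled males the 6 became 11 without SERTPyramid replicate 2 (8.95% of all genes) or without control replicate 1 (6.32%). They became 3 without control replicate 2 (2.04%), control replicate 3 (2.61%) or SERTPyramid replicate 3 (2.54%). For the mean, the 5 became 15 without SERTPyramid replicate 2 labelled male (12.3% of all genes) and 8 without control replicate 1 labelled male (10.1%). For the difference, the 4 became 1 without SERTPyramid replicate 1 labelled male (6.63% of all genes). They became 2 without control replicate 1 labelled female (3.38%) or labelled male (4.55%). The same count of 2 came without SERTPyramid replicate 1 (4.73%) or 3 (4.03%) labelled female. No member was called in these fits, where the smallest adjusted p of a member by edgeR was 0.141.

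Small differences pointed down across the family. The log2 fold change, SERTPyramid over control, was below 0 for 44 of 54 members in labelled females, with a median of -0.0802, while the median of all genes tested was -0.000375. In labelled males 44 of 54 were also below 0, with a median of -0.0753 against 0.00159 for all genes. Both were below 0 in 34 of 54 members (63%) and both above 0 in none, while 26.8% of all genes tested were below 0 in both. For the mean over labelled sexes 48 of 54 were below 0 (median -0.0692), 11 of 12 alpha, 18 of 21 beta and 19 of 21 gamma genes. Similar genes leaned the same way. In that mean 16 of 18 other cell-recognition genes (median -0.0521) and 10 of 13 non-clustered protocadherins (median -0.034) were below 0. In labelled males all 18 of these cell-recognition genes were below 0, with a median of -0.0941. Members vary together from pool to pool and are no independent evidence, so that these counts describe the 12 libraries and carry no test.

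The pools differed in how many members were low. Relative to each member's mean over the 12 libraries, 13 of 54 members were below their mean in control replicate 2 labelled male and 16 to 20 in the 3 controls labelled female. The highest numbers were 43 in SERTPyramid replicate 3 and 40 in control replicate 1, both labelled male. SERTPyramid pools labelled female had 31 to 36 members below their mean, with medians between -0.0295 and -0.0194 on the log2 scale, and the other SERTPyramid pools labelled male had 36 and 21. Control replicate 1 labelled male thus stood with the SERTPyramid pools, and SERTPyramid replicate 2 labelled male with the controls.

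**Figure D4:**
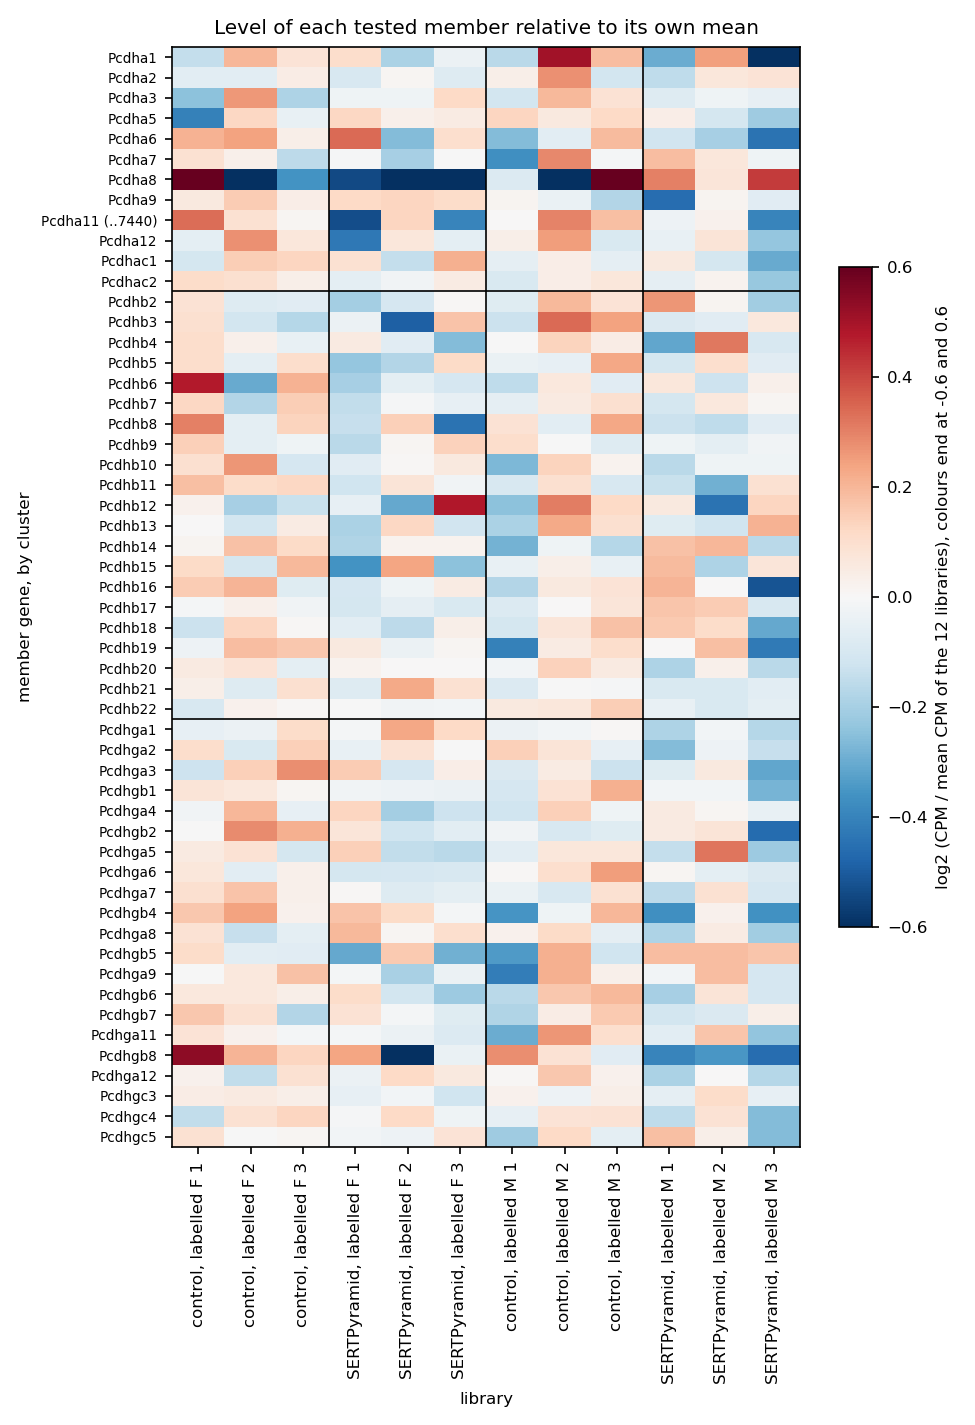
Log2 ratio of each tested member's CPM to its own mean over the 12 libraries (rows, by cluster, columns are libraries grouped by genotype and labelled sex, and colours end at -0.6 and 0.6). Most members are blue in SERTPyramid replicate 3 and control replicate 1 labelled male (43 and 40 of 54 below their mean), and most are red in control replicate 2 labelled male (13 below).

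Without the control replicate 1 libraries, differences in labelled males were larger. Then 55 members passed the filter, 48 of them were below 0 with a median of -0.123, and 11 had an unadjusted p under 0.05, all below 0, which is 20% of members against 5.91% of all genes. The smallest adjusted p by edgeR was 0.798, so that 0 were called. In labelled females 43 of 55 were below 0 with a median of -0.0727, and 0 members had an unadjusted p under 0.05, against 6.43% of all genes. For the mean over labelled sexes 8 members had one, all below 0, against 8.88% of all genes, and for the difference 3, against 3.87%.

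Among the C-types, Pcdhac2 had close differences in both labelled sexes. Its levels were 86.06, 85.32 and 81.71 CPM in controls and 76.49, 78.61 and 82.4 CPM in SERTPyramid labelled female. The labelled-male pools had 74.95, 81.9 and 83.72 against 76.77, 80.88 and 68.11 CPM. Groups overlapped in each labelled sex, and the log2 fold changes were -0.09 ± 0.06 and -0.09 ± 0.06 (SE). The difference between them was 0.00 ± 0.08 (adjusted p = 0.999 by edgeR). Without both control replicate 1 libraries they were -0.0745 and -0.136, and with 1 library left out the change in labelled males ran from -0.03, without SERTPyramid replicate 3, to -0.15, without SERTPyramid replicate 2. For their mean, -0.09 ± 0.04, the unadjusted p of edgeR was 0.0423 and the adjusted p 0.756.

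Pcdhgc3, the most abundant member, lay apart between genotypes in labelled females by a narrow gap. Controls labelled female were at 94.94, 95.67 and 94.52 CPM and SERTPyramid at 88.93, 91.03 and 84.92 CPM. These groups did not overlap, with a log2 fold change of -0.11 ± 0.05 (SE) and an adjusted p of 0.615 by edgeR. In labelled males the pools were at 93.9, 90.21 and 94.37 against 88.79, 99.41 and 89.05 CPM, a log2 fold change of -0.01 ± 0.05. The difference between these changes was -0.10 ± 0.07 (adjusted p = 0.999 by edgeR).

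The remaining C-types overlapped between genotypes in each labelled sex. Pcdhgc4 was at 49.98, 59.13 and 60.62 CPM in controls and 55.17, 60.2 and 54.42 CPM in SERTPyramid labelled female. In labelled males it was at 53.6, 58.67 and 58.86 against 49.88, 58.84 and 46.25 CPM, a log2 fold change of -0.15 ± 0.09, and -0.184 without both control replicate 1 libraries. Pcdhgc5 had log2 fold changes of -0.02 ± 0.10 and 0.04 ± 0.10, and Pcdhac1 of 0.00 ± 0.12 and -0.09 ± 0.12 in labelled females and males. These are smaller than their errors.

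Of the alpha genes, Pcdha11 (ENSMUSG00000007440) had the smallest p in labelled females and in the mean. It was at 7.653, 6.461 and 6.119 CPM in controls and 4.187, 6.637 and 4.606 CPM in SERTPyramid labelled female. SERTPyramid replicate 2 lay among the controls, with a log2 fold change of -0.40 ± 0.16 (SE) and an adjusted p of 0.568 by edgeR. Labelled males had 6.068, 7.442 and 6.875 against 5.928, 6.164 and 4.6 CPM, also overlapping, with -0.30 ± 0.16. The mean of both was -0.35 ± 0.11 (unadjusted p = 0.00643, adjusted p = 0.756 by edgeR). Pcdha12, at 13.51, 16.99 and 14.75 against 10.43, 14.73 and 13.48 CPM in labelled females, had -0.23 ± 0.13. The change of Pcdha11 in labelled females was between -0.62 and -0.26 with 1 library left out, and that of Pcdha12 fell to -0.09 without SERTPyramid replicate 1 and -0.14 without control replicate 2.

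Pcdha5 went opposite ways in the labelled sexes. It was at 9.227, 13.31 and 11.84 CPM in controls and 13.3, 12.47 and 12.62 CPM in SERTPyramid labelled female, where control replicate 1 was the lowest of all 12. Labelled males had 13.36, 12.72 and 13.29 against 12.58, 11.37 and 10.55 CPM, without overlap. The difference between the log2 fold changes was 0.35 ± 0.15 (unadjusted p = 0.0337, adjusted p = 0.999 by edgeR). Without control replicate 1 labelled female it was 0.22. Without both control replicate 1 libraries it was 0.204 (unadjusted p = 0.159, adjusted p = 0.999 by edgeR), and the change in labelled females was 0.0289.

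Beta genes named by the same rule were Pcdhb8, Pcdhb14 and Pcdhb22. Pcdhb22, the last gene of its cluster and among the steadiest, was at 23.42, 23.59 and 24.86 CPM in controls and 21.81, 21.12 and 21.61 CPM in SERTPyramid labelled male. The groups lay apart, with a log2 fold change of -0.16 ± 0.06 (unadjusted p = 0.0206, adjusted p = 0.999 by edgeR). In labelled females the values were 20.99, 22.85 and 22.58 against 22.45, 22.12 and 22.22 CPM, a change of 0.01 ± 0.06. Pcdhb14 had the smallest p for the difference between labelled sexes. Controls and SERTPyramid were at 10.41, 11.64 and 11.14 against 9.072, 10.45 and 10.45 CPM in labelled females and at 8.464, 10.12 and 9.139 against 11.64, 11.8 and 9.2 CPM in labelled males. The difference of the changes was -0.38 ± 0.15 (adjusted p = 0.999 by edgeR). Pcdhb8 was lower in both, by -0.26 ± 0.15 and -0.20 ± 0.15, and its labelled-male groups (5.11, 4.607 and 5.66 against 4.404, 4.328 and 4.6 CPM) did not overlap. In labelled females its change was -0.13 without SERTPyramid replicate 3, -0.41 without SERTPyramid replicate 2 and -0.17 on leaving out control replicate 1.

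Among gamma genes, Pcdhga6 was at 15.57, 14.21 and 15.19 CPM in controls and 13.8, 13.84 and 13.9 CPM in SERTPyramid labelled female, without overlap. Labelled males had 14.9, 15.91 and 17.69 against 14.95, 14.25 and 13.97 CPM, where 1 SERTPyramid pool exceeded the lowest control. The mean change was -0.14 ± 0.06 (unadjusted p = 0.0197, adjusted p = 0.756 by edgeR). Pcdhga12 was lower in SERTPyramid labelled male, with 20.97, 23.35 and 21.3 against 18.33, 20.9 and 18.57 CPM and no overlap. Labelled females had 21.25, 18.87 and 22.28 against 20.39, 22.69 and 21.75 CPM. Its changes were -0.19 ± 0.08 and 0.05 ± 0.08, and their difference was 0.24 ± 0.11 (adjusted p = 0.999 by edgeR).

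Pcdhga2 in labelled males was at 18.58, 17.76 and 16.27 against 14.02, 16.44 and 15.28 CPM (log2 fold change -0.20 ± 0.09), and Pcdhga8 differed by 0.28 ± 0.13 between the labelled sexes. The groups of both genes overlapped in each labelled sex. The pseudogene Pcdhgb8 had the largest mean change of the 54 tested members, -0.44 ± 0.16 (unadjusted p = 0.0139, adjusted p = 0.756 by edgeR). It was at 2.099, 1.669 and 1.585 against 1.706, 0.9414 and 1.407 CPM in labelled females and at 1.757, 1.536 and 1.383 against 1.101, 1.137 and 1.055 CPM in labelled males, where the groups did not overlap. These levels rest on 20 to 48 counts per library.

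**Figure D5:**
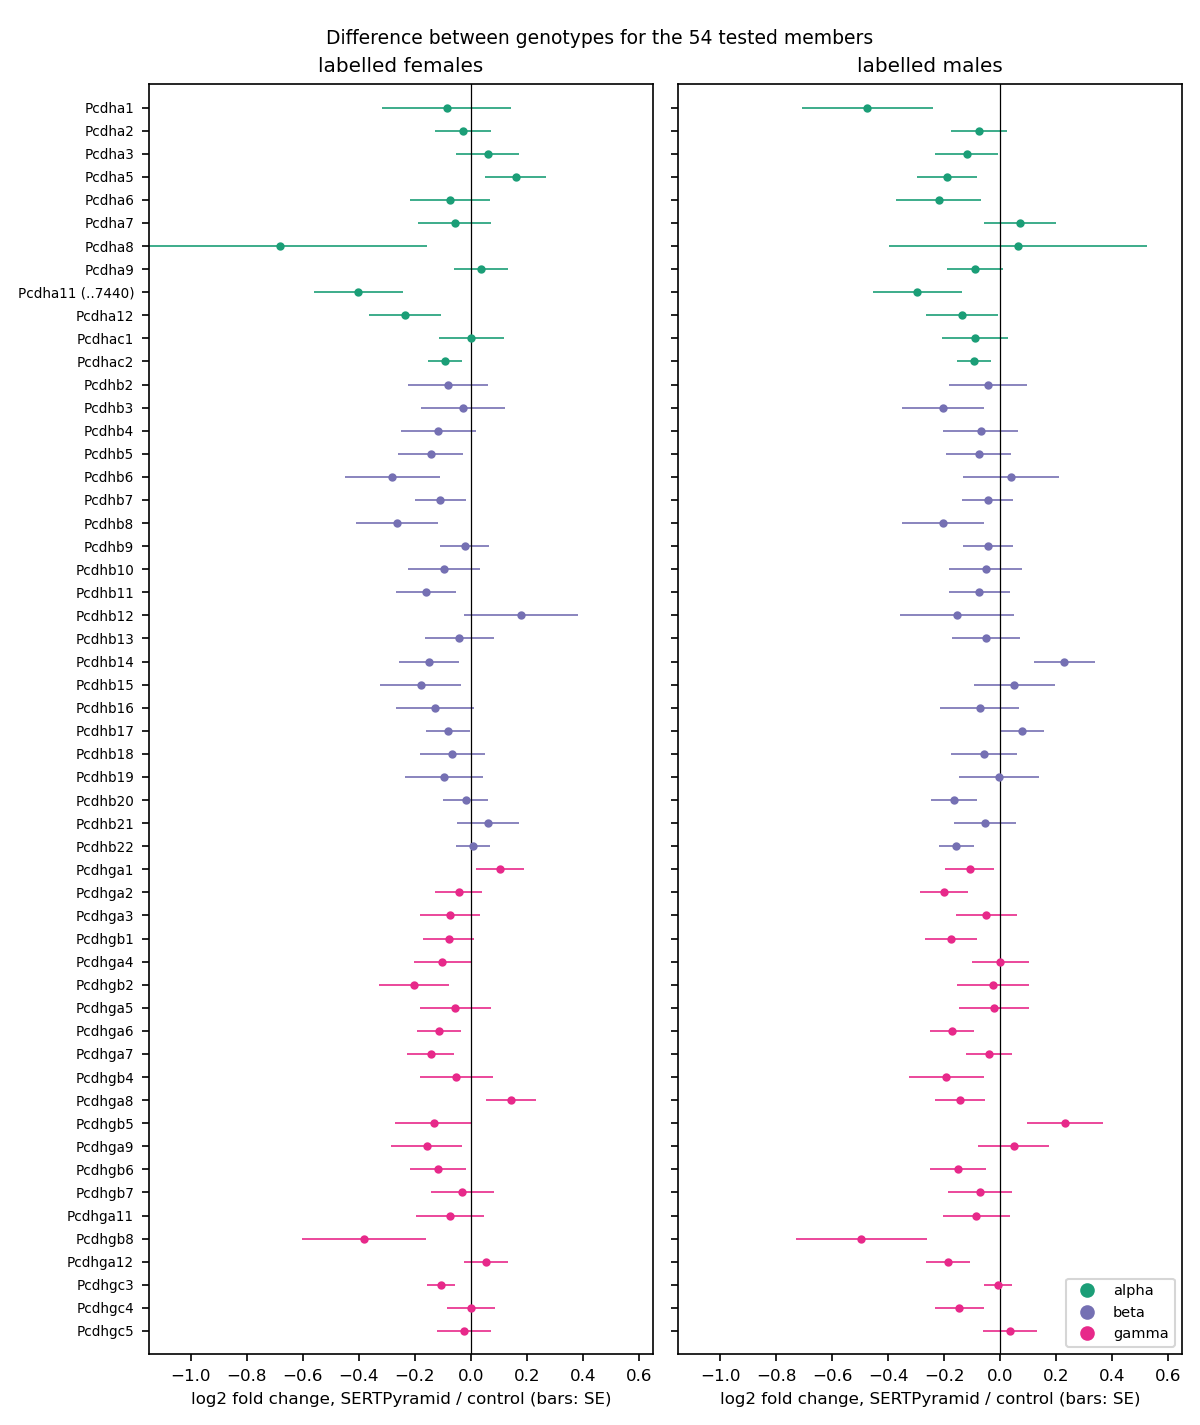
Log2 fold change of SERTPyramid over control for each of the 54 tested members in labelled females (left) and labelled males (right), with bars of 1 SE and colours by cluster. In each panel 44 of 54 points lie left of 0, and no member passed the adjusted threshold.

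Groups that do not overlap are another way to read single members. In labelled females 8 of 54 members (14.8%) were lower in all 3 SERTPyramid pools than in all 3 controls, and 0 were higher. These were Pcdhb11, Pcdhb17, Pcdhgb1, Pcdhga6, Pcdhga7, Pcdhga9, Pcdhga11 and Pcdhgc3. Of all genes tested, 9.38% were lower and 9.48% higher in that way. In labelled males 5 members (9.26%) were lower, Pcdha5, Pcdhb8, Pcdhb22, Pcdhgb8 and Pcdhga12, and 0 higher, against 3.26% and 3.66% of all genes. No member was on both lists.

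The genes that act on or with the clusters were read from 4 lists. Of 24 regulators of promoter choice and chromatin at the clusters, 0 were called in either labelled sex, 17 were below 0 in labelled females (median -0.0462) and 18 in labelled males (-0.0191). In labelled females the 4 smallest p belonged to the cohesin subunit gene Stag2 (-0.13 ± 0.05), the histone methyltransferase gene Ehmt2 (0.11 ± 0.05), Smchd1 (-0.14 ± 0.06), a silencing factor that acts on the clusters, and the cohesin loader gene Mau2 (0.10 ± 0.05). In labelled males they belonged to the cohesin subunit gene Smc1a (-0.11 ± 0.05), the deacetylase gene Hdac1 (0.13 ± 0.07), the cohesin loader gene Nipbl (-0.11 ± 0.07) and Tet3 (-0.10 ± 0.07), whose enzyme oxidizes methylcytosine. The adjusted p of edgeR was between 0.568 and 0.999 for these 8 genes.

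Genes of signalling and partner proteins included the kinases bound by the constant ends and the WAVE complex, which builds actin networks. Of 29 tested, 0 were called, 21 were below 0 in labelled females (median -0.0564) and 20 in labelled males (-0.0276). The smallest p in labelled females belonged to Rac1, a small GTPase upstream of WAVE (-0.15 ± 0.05), the WAVE complex genes Wasf1 (-0.135) and Nckap1 (-0.11 ± 0.04), and the synaptic adhesion gene Nlgn1 (-0.14 ± 0.06), with adjusted p between 0.53 and 0.582 by edgeR. Of these, Rac1 was at 0.06 ± 0.05 in labelled males, and the WAVE complex genes Wasf2 and Cyfip1 were at 0.08 ± 0.07 and 0.07 ± 0.05 in labelled females. In labelled males the receptor gene Ret (-0.17 ± 0.08), Marcks (0.08 ± 0.06) and Wasf3 (-0.07 ± 0.06) were among those with the smallest p. With only the 6 labelled-female libraries, Rac1 was called lower (-0.146, adjusted p = 0.0364 by edgeR), where 0.777% of all genes were called lower.

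Of 13 non-clustered protocadherins tested, 0 were called, 9 were below 0 in labelled females (median -0.0405) and 10 in labelled males (-0.0537). In labelled females the smallest p belonged to Pcdh19 (-0.17 ± 0.07), Pcdh7 (-0.13 ± 0.08), Pcdh9 (-0.10 ± 0.06) and Pcdh20 (-0.14 ± 0.09). In labelled males they were Pcdh17 (-0.14 ± 0.07), Pcdh20 (0.13 ± 0.09), Pcdh9 (-0.09 ± 0.06) and Pcdh10 (-0.07 ± 0.09), while Pcdh19 was at 0.00 ± 0.07.

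Of 18 other cell-recognition genes, 0 were called, 12 were below 0 in labelled females (median -0.0277) and 18 in labelled males (-0.0941). In labelled females the smallest p belonged to the adhesion gene Ncam2 (-0.27 ± 0.10), the cadherin gene Cdh2 (-0.10 ± 0.06), Dscam (-0.10 ± 0.06), which also serves recognition between neurites, and Dscaml1 (-0.08 ± 0.05). In labelled males they were the cadherin gene Cdh6 (-0.31 ± 0.12), L1cam (-0.11 ± 0.05), Dscam (-0.12 ± 0.06) and Cdh8 (-0.10 ± 0.05). L1cam was at 0.06 ± 0.05 in labelled females. With only the labelled-female libraries, Pcdh19 (-0.173, adjusted p = 0.0224 by edgeR) and Ncam2 (-0.267, adjusted p = 0.00108) were called lower, beside the 0.777% of all genes called lower.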

How the data were processed

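The deposited table gives unnormalized read counts for each Ensembl gene in 12 libraries, and its genome build is mm10, per the submitters' processing notes. The libraries were made with TruSeq RNA v2, a kit that does not mark strand, per the labels' protocols. The aligner, the annotation and the way of counting reads that overlap several genes were not given in these sources. All 12 sample columns were mapped to a sample and 0 were left out. The table has 0 entries that name no gene. Groups came from the labels, with 3 libraries each. Library totals of 18747249 to 25522347 counts mean that a count of 0 allows up to 3 counts, or 0.118 to 0.16 CPM, which covers counting error only and says nothing of a gene with no base that could be counted.

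Counts were filtered with filterByExpr, which left 17631 genes, scaled by TMM and tested with edgeR 4.0.16 (R 4.3.3) by the robust quasi-likelihood F test on all 12 libraries, with Benjamini-Hochberg adjustment over all genes tested and a threshold of 0.05. Standard errors (SE) were obtained by dividing the log2 fold change, without its sign, by the root of F. CPM values use library totals times the TMM factor. Exon lengths, overlaps and positions came from GENCODE M21, and recurring sequence from words of 50 bases. The test was checked on simulated counts. No libraries of a group were duplicates, as chi-square per degree of freedom between them was 2.39 to 12.6.

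Named were the C-type members, the 3 highest and 2 lowest members of each cluster by level per kilobase, the 4 with the smallest p in each comparison and, for other lists, up to 4 with the smallest p, of which 1 gene is not reported here. Some members were also named by non-overlap after their values were seen. The members and lists were chosen with earlier results of these data known. Alternatives were RLE scaling, DESeq2 1.42.0, no filter on low counts, a replicate block, the compared groups alone, leaving out each library, leaving out both control replicate 1 libraries, other lengths and shares without C-types.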

Additional observations from a re-analysis of the deposited data

How the results depend on the processing

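No member was called by DESeq2, with RLE scaling, without a filter, with a replicate block, in the compared groups alone, without both control replicate 1 libraries or without any 1 library (0 in each). In labelled females DESeq2 left 46 of 54 adjusted p as NA. Over all genes, the fit without a filter called 103 of 34328 in labelled females and 5 in labelled males. It called 14 in the difference and 66 in the mean over labelled sexes. In this mean the smallest adjusted p of a member was 0.0764 by edgeR, against 0.756 in the main fit. The fit without SERTPyramid replicate 2 labelled male called 144 of 18008 in the mean, and the other fits with 1 library left out called 0. Members below 0 numbered 39 to 43 in labelled females, 36 to 48 in labelled males and 42 to 52 in the mean when 1 library was left out. With the replicate block they were 43, 44 and 48. Same-numbered libraries did not deviate together (2 of 18 correlations over 0.1, range -0.225 to 0.234), so that the numbers were not taken as pairs. Of 340 values of 25 named log2 fold changes, 319 kept direction and 21 reversed, all of them C-type values near 0. In labelled females, Pcdhac1 was at -0.07267 without both control replicate 1 libraries and between -0.07405 and 0.09065 with 1 library left out. Pcdhgc4 was at 0.0006176 without a filter, 0.002296 with the replicate block and 0.0003702 in the compared groups alone, and between -0.07928 and 0.05442 with 1 library left out. Pcdhgc5 was at 0.007639 without both control replicate 1 libraries and between -0.05704 and 0.007461. In labelled males, without both control replicate 1 libraries, Pcdhgc3 was at 0.00401 and Pcdhgc5 at -0.03529, and with 1 library left out they ran from -0.06014 to 0.02381 and from -0.06411 to 0.15. The cause was not tested. Depth limits Pcdha8, Pcdhgb8 and Pcdhb1, while Pcdhga10 has no base that could be counted and Pcdha4 and Pcdha11 (ENSMUSG00000102206) have most of their own exons covered.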

Other observations

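Some gene models on the minus strand opposite the clusters had counts of their own, while Gm38225 and Gm37118 had 0 in every library. BC037039, which lies opposite Pcdhgc3, had 18 to 42 counts per library, where Pcdhgc3 had 1764 to 2294. Gm10544, opposite the Pcdha11 model ENSMUSG00000102206, had 12 to 26 counts, and that model had 0 to 4. Gm26672, opposite 4 gamma genes that include Pcdhga10 and Pcdhga11, had 4 to 16 counts, where Pcdhga11 had 420 to 839 and Pcdhga10 had 0. These counts come from bases that no other model overlaps, and the kit does not mark strand.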
